A study of Mus musculus with 27 samples.

Results

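The comparison of C9-BACexp mice with their C57BL/6J littermates after an injection of EGFP-KASH alone is the genotype contrast of this study in which no Cas13d effector and no crRNA was present. It held 7 of the 27 libraries of the series, each made from the motor cortex of 1 mouse: 3 C9-BACexp mice (replicates 2, 3 and 5) and 4 C57BL/6J mice (replicates 2, 3, 4 and 5). The libraries were chosen by the genotype and the vector that their column labels name. C9-BACexp mice are 1 transgenic line that carries a bacterial artificial chromosome with the full-length human C9ORF72 gene and an expanded hexanucleotide repeat, in addition to the mouse gene, and the line shows no overt motor phenotype. C57BL/6J littermates lack the transgene. Both groups received an AAV of the PHP.eB serotype that encodes EGFP-KASH under the ubiquitous CAG promoter. The KASH domain holds the green fluorescent protein at the outer nuclear membrane, so that nuclei of transduced cells can be sorted by fluorescence. The age, dose and collection time of the mice with EGFP-KASH only are not given in the sources used here. All values come from RNA of sorted nuclei, and no cytoplasmic RNA was measured.

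The totals of the 7 libraries were 21508829 to 35834122 expected counts, with a median of 27892811 in C9-BACexp mice and 26515028 in C57BL/6J mice. Spearman correlations were 0.938 to 0.969 among C9-BACexp libraries, 0.933 to 0.963 between the groups and 0.936 to 0.969 among C57BL/6J libraries. Xist and Y-linked genes marked 2 female mice and 1 male mouse among the C9-BACexp mice, and 3 female mice and 1 male mouse among the C57BL/6J mice, with replicate 3 the male mouse of each group. The labels name the cells primary neurons, and neuronal genes were high in every library. The summed level of 15 pan-neuronal markers was 17308 to 21077 CPM (counts scaled by library total and by the TMM factor) in C9-BACexp mice. In C57BL/6J mice it was 18914 to 21023 CPM. Glial genes were read as well. In C9-BACexp mice, 25 microglial markers gave 110 to 127 CPM, 24 astrocyte markers 1115.5 to 1576 CPM and 32 oligodendrocyte markers 2159.5 to 3119 CPM. In C57BL/6J mice these sums were 110 to 159, 1242.5 to 1686 and 631 to 2360 CPM. Values are given in the order of replicates 2, 3 and 5 for C9-BACexp mice and 2, 3, 4 and 5 for C57BL/6J mice, and a log2 fold change is C9-BACexp over C57BL/6J with its standard error from edgeR.

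C9ORF72 is known for a short repeated motif that, when expanded, runs in families with amyotrophic lateral sclerosis (ALS), a loss of motor neurons, or frontotemporal dementia (FTD). The gene gives 3 main transcript variants, V1, V2 and V3, which differ in their first exon, and the repeat lies in the intron of V1 and V3 but upstream of the V2 start. Its protein forms a complex with SMCR8 and WDR41 that acts in autophagy and lysosomal function, and repeat-containing RNA can form foci in the nucleus and be translated into dipeptide repeat proteins. Nuclei sorted from motor cortex are largely neuronal here, but the CAG promoter is also active in glia, including oligodendrocytes, the cells that make central myelin.

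Human C9ORF72 was read in every C9-BACexp library and in no C57BL/6J library. Summed over the 3 human transcripts, it reached 83.6, 100.5 and 100.8 CPM in C9-BACexp mice (95.0 ± 9.85 CPM, SD, n = 3) and 0 CPM in each of the 4 C57BL/6J mice. The highest limit that a count of 0 allows in a C57BL/6J library was 0.144 CPM (3 counts, counting error only), so the sum was at least 660-fold higher in C9-BACexp mice. The genotype labels of the 7 libraries thus matched the transgene. An exact permutation test of the sum gave p = 0.0571 (two-sided), the smallest p that 3 against 4 libraries allow, and edgeR's quasi-likelihood test with Benjamini-Hochberg adjustment called all 3 transcripts higher (adjusted p = 7.5e-08 for V3, 0.0043 for V2 and 9.4e-09 for V1).

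The split of the human reads between transcripts differed among the C9-BACexp mice. V3 was 70.5, 27.03 and 27.9 CPM, V1 was 13.1, 25.1 and 25.6 CPM, and V2 was 0, 48.3 and 47.4 CPM in replicates 2, 3 and 5. Replicate 2 was thus listed at 0 for V2 and highest for V3, while replicates 3 and 5 lay close together for each transcript. Salmon assigns reads shared by the variants by estimation, so the sum is firmer than the split.

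**Figure D1:**
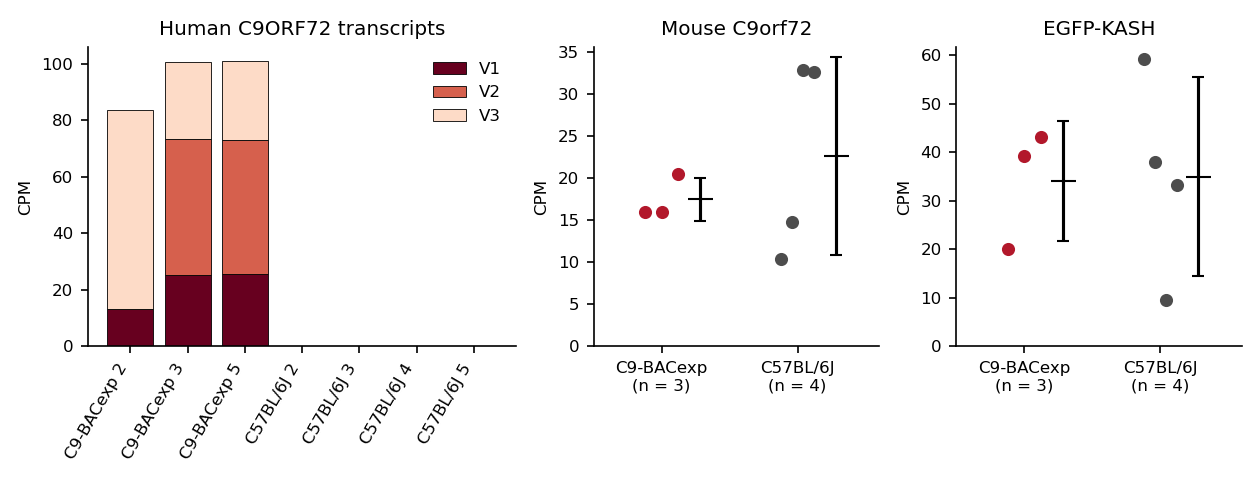
Stacked bars give the CPM of the 3 human C9ORF72 transcripts in each library, and points give mouse C9orf72 and EGFP-KASH per mouse with mean ± SD beside them. Human C9ORF72 sums to between 83.6 and 100.8 CPM in the 3 C9-BACexp libraries and is 0 in the 4 C57BL/6J libraries, whereas the groups overlap for mouse C9orf72 and EGFP-KASH.

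Mouse C9orf72 and the vector showed no difference that the replicates could resolve. Mouse C9orf72 was 15.9, 16.0 and 20.4 CPM in C9-BACexp mice (17.4 ± 2.57, SD, n = 3) and 10.4, 14.8, 32.8 and 32.5 CPM in C57BL/6J mice (22.6 ± 11.7, SD, n = 4; exact permutation test, two-sided, p = 0.686). The C57BL/6J mice formed a low and a high pair, and the 3 C9-BACexp mice lay between them. EGFP-KASH was 20.0, 39.1 and 43.2 CPM in C9-BACexp mice and 59.2, 38.0, 9.42 and 33.2 CPM in C57BL/6J mice (exact permutation test, p = 0.857). Of the partners of the protein, Smcr8 was 20.0, 13.03 and 15.4 CPM in C9-BACexp mice and 16.0, 13, 15.01 and 15.2 CPM in C57BL/6J mice, and Wdr41 was 41.9, 32.5 and 32.7 CPM against 27.6, 21.6, 31.6 and 35.4 CPM. Neither passed the test (edgeR adjusted p = 0.76 and 0.25).

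Among mouse genes, the contrast called oligodendrocyte markers such as Mbp, the collagen receptor gene Ddr1 and the neurofascin gene Nfasc higher in C9-BACexp nuclei, and the GABA receptor subunit gene Gabrb2, the calmodulin genes Calm2 and Calm3 and the synaptic gene Snap25 lower. In all, 623 of 21768 tested genes and added sequences (2.86%) differed by more than 1.2-fold at an adjusted p below 0.05 in edgeR, 347 of them higher (1.59%) and 276 lower (1.27%) in C9-BACexp mice. The median log2 fold change was -0.03 over all tested genes. At an unadjusted p under 0.05 there were 4127 genes. The calls rested on 4 factors of unwanted variation that were estimated from all 27 libraries: without them, 4 genes were called by edgeR, namely the 3 human transcripts and the predicted gene Gm31137, and 1729 had an unadjusted p under 0.05, while DESeq2 without factors called 65, of which 46 were among the 623 in the same direction. The values of the 2 groups did not overlap in 167 of the 347 genes called higher and in 88 of the 276 called lower, against 719 (3.3%) and 615 (2.83%) of all tested genes, or 1334 in all (6.13%).

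The 4 C57BL/6J libraries were not alike, and many calls changed with the ones used. In replicates 4 and 5, genes with GC-rich transcripts were low and genes with GC-poor transcripts were high. In the decile of genes with the highest GC content, the median deviation from the mean of the 27 libraries was 0.01, -0.01 and 0.05 (log2) in C9-BACexp mice and 0.24, 0.06, -0.38 and -0.23 in C57BL/6J mice. In the decile with the lowest GC content, it was -0.12, 0.08 and -0.01 in C9-BACexp mice and -0.28, -0.12, 0.37 and 0.36 in C57BL/6J mice. C57BL/6J replicate 2 therefore deviated in the opposite direction from replicates 4 and 5, and the 3 C9-BACexp libraries lay between them. Genes called higher had a median transcript GC content of 52.9%, genes called lower 46.3%, and genes not called 48.7%. After the counts were corrected for GC content and gene length per library, with the factors kept, 240 genes were called higher (1.1%) and 209 lower (0.96%), and 383 of the 623 were called again in the same direction.

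**Figure D2:**
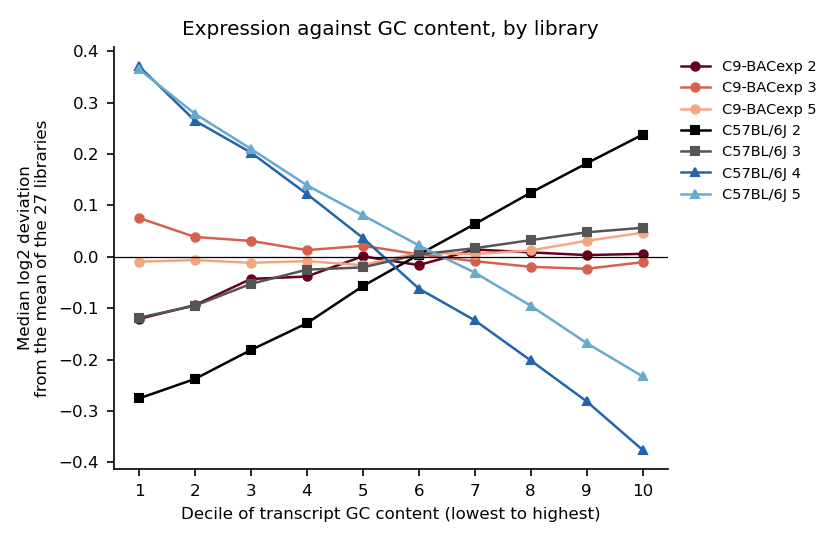
Each line is 1 library and gives the median log2 deviation of its genes from their mean over the 27 libraries (vertical axis), for deciles of genes by transcript GC content (horizontal axis, lowest to highest). The C9-BACexp lines stay between -0.12 and 0.08, whereas C57BL/6J replicates 4 and 5 fall from 0.37 and 0.36 to -0.38 and -0.23 and C57BL/6J replicate 2 climbs from -0.28 to 0.24.

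Leaving out C57BL/6J libraries in pairs, an alternative chosen after these values were seen, separated the calls by the mice they rested on. Without replicates 4 and 5, 159 of the 347 higher and 42 of the 276 lower genes were called again in the same direction, and 613 genes were called in all. Without replicates 2 and 3, 185 of the higher and 209 of the lower genes were called again, and 2141 genes were called in all. Both reduced sets called 34 of the higher genes and 14 of the lower genes. The design gives no reason to prefer either pair as the control. Of 71 called mouse genes that the naming rule chose and that were counted here, some not named in this text, 20 kept the call in each of the 7 fits that left out 1 library. In at least 1 of those fits 28 of the 71 moved by more than 1.5 times, and 17 lost the call after correction for GC content and length.

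A small group of genes passed under each of these conditions. Of the 623, 33 were called in the same direction without either pair of C57BL/6J libraries, in each of the 7 fits that left out 1 library and after the correction for GC content and length; they were picked out with their values known and are given as a description. The 30 higher ones were the 3 human transcripts and 27 mouse genes, and the 3 lower ones were Tsen15, Blvrb and Pecam1. Apart from the human V2 transcript, the groups did not overlap in any of the 33. None of the mouse genes among them was called by edgeR without the factors (adjusted p = 0.52 for Ddr1, 0.48 for Nfasc and 0.057 for Blvrb).

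Ddr1, which encodes a receptor tyrosine kinase for collagen (GRCm39, chr17:35992208-36015524), was 38.0, 56.5 and 53.9 CPM in C9-BACexp mice and 28.6, 27.2, 30.7 and 37.0 CPM in C57BL/6J mice. The lowest C9-BACexp mouse was just above the highest C57BL/6J mouse, and the log2 fold change was 0.67 ± 0.09 (edgeR adjusted p = 0.00028). Nfasc, which encodes neurofascin, an adhesion molecule of the axon initial segment and the node of Ranvier (chr1:132492428-132669564), was 1045, 1063 and 1019 CPM in C9-BACexp mice and 856, 813, 574 and 757 CPM in C57BL/6J mice. Its C9-BACexp values lay close together and above each C57BL/6J value, with a log2 fold change of 0.49 ± 0.07 (edgeR adjusted p = 0.00036). Phldb1, which encodes a pleckstrin homology domain protein that anchors microtubules at the cell cortex (chr9:44597601-44646550), was 164, 269 and 254 CPM in C9-BACexp mice and 136, 116, 93.4 and 134 CPM in C57BL/6J mice, a log2 fold change of 0.92 ± 0.13 (edgeR adjusted p = 0.00036).

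Fnbp1, an F-BAR protein that links membranes to actin, also belonged to this group and was 459, 500.1 and 477 CPM in C9-BACexp mice and 339, 357, 231 and 287 CPM in C57BL/6J mice. Arhgef10, an exchange factor for small GTPases, was 188, 199 and 167 CPM in C9-BACexp mice and 73.1, 85.6, 77.2 and 112 CPM in C57BL/6J mice, more than 1 log2 unit higher (1.09 ± 0.16). Kif13a, a kinesin motor, was 153, 168 and 166 CPM in C9-BACexp mice and 81.2, 115, 87.1 and 120 CPM in C57BL/6J mice. In each of these genes the C9-BACexp mice lay closer together than the C57BL/6J mice. Wnk1, a kinase that controls chloride cotransporters, had one of the smaller changes of the group, with 198, 223 and 214 CPM in C9-BACexp mice and 160, 156, 151 and 176 CPM in C57BL/6J mice (log2 fold change 0.40 ± 0.06). Dnm3 (a dynamin), Dock9 (an exchange factor for Cdc42), Phlpp1 (a phosphatase of Akt), Chd7 (a chromatin remodeler), Chdh (choline dehydrogenase), Slain1 (a microtubule plus-end protein) and the oligodendrocyte marker Plekhh1 also belonged to it, with log2 fold changes of 0.48 to 1.27.

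The 3 lower genes were at modest or low levels. Tsen15, which encodes a subunit of the tRNA splicing endonuclease (chr1:152206923-152262533), was 2.44, 11.2 and 10.4 CPM in C9-BACexp mice and 11.4, 19.5, 19.1 and 19.5 CPM in C57BL/6J mice. C9-BACexp replicate 2 was far below the other C9-BACexp mice, and the groups came close at replicate 3 of the C9-BACexp mice and replicate 2 of the C57BL/6J mice (log2 fold change -1.34 ± 0.20, edgeR adjusted p = 8e-04). Without C9-BACexp replicate 2 the log2 fold change of Tsen15 was -0.67. Blvrb, biliverdin reductase B (chr7:27147275-27165569), was 1.28, 0.576 and 0.728 CPM in C9-BACexp mice and 3.11, 8.56, 5.20 and 4.72 CPM in C57BL/6J mice (log2 fold change -2.75 ± 0.48, adjusted p = 0.0030). Pecam1, an adhesion molecule of endothelial cells, was 0.280, 0.756 and 1.12 CPM in C9-BACexp mice and 4.55, 2.58, 3.45 and 2.25 CPM in C57BL/6J mice (log2 fold change -2.30 ± 0.48, adjusted p = 0.011).

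Of the gene lists, oligodendrocyte markers gave the most calls. All 32 tested markers of the list had a positive log2 fold change, with a median of 1.05, and 16 of the 32 passed the test as higher, against 1.59% of all tested genes; none was called lower. In bulk nuclei, a larger share of oligodendrocyte nuclei and more RNA per nucleus cannot be told apart. The summed level of the 32 markers was 2159.5, 3119 and 2486 CPM in C9-BACexp mice and 631, 977, 1858 and 2360 CPM in C57BL/6J mice. The groups overlapped: C57BL/6J replicates 2 and 3 lay far below the C9-BACexp mice, whereas replicate 5 exceeded the lowest C9-BACexp mouse.

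Mbp, which encodes myelin basic protein, was 645, 836 and 627 CPM in C9-BACexp mice and 208, 303, 409 and 540 CPM in C57BL/6J mice, with no overlap (log2 fold change 1.01 ± 0.17, edgeR adjusted p = 0.0018). Gjc3, a connexin of myelinating cells, was 31.0, 56.9 and 44.0 CPM in C9-BACexp mice and 6.996, 13.3, 34.3 and 45.3 CPM in C57BL/6J mice, where replicates 4 and 5 reached the C9-BACexp range (1.11 ± 0.18, adjusted p = 0.0018; 0.63 and not called without C57BL/6J replicate 2). Plekhh1 was 102, 135 and 118 CPM in C9-BACexp mice and 35.2, 53.7, 64.3 and 82.8 CPM in C57BL/6J mice (1.05 ± 0.17, adjusted p = 0.0019). These 3 markers rose by about the same amount, but the gap between the groups was clear in Mbp and Plekhh1 only. Sox10, the transcription factor that defines the lineage, was 19.6, 34.2 and 22.5 CPM in C9-BACexp mice and 6.66, 6.61, 11.9 and 12.3 CPM in C57BL/6J mice, and Myrf, which drives myelin gene transcription, was 77.2, 91.2 and 66.7 CPM against 20.8, 26.9, 42.4 and 55.6 CPM. Both transcription factors were higher in each C9-BACexp mouse than in any C57BL/6J mouse, as were 11 of the 32 markers against 3.3% of all tested genes. Mog, a glycoprotein of the myelin surface, was 17.5, 44.2 and 35.3 CPM in C9-BACexp mice and 6.47, 13.6, 28.1 and 41.7 CPM in C57BL/6J mice, and did not pass the test.

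Erbb3, a neuregulin receptor of the oligodendrocyte lineage that was not on the list (chr10:128403392-128425811), had the smallest adjusted p but one of the named mouse genes that were higher. It was 15.8, 24.9 and 19.1 CPM in C9-BACexp mice and 3.79, 7.24, 12.97 and 15.5 CPM in C57BL/6J mice (log2 fold change 1.17 ± 0.15, edgeR adjusted p = 0.00016), and without C57BL/6J replicates 2 and 3 its log2 fold change was 0.47 (edgeR adjusted p = 0.14). Sox2ot, a long non-coding RNA at the Sox2 locus, followed the same order of mice, with 87.0, 185 and 145 CPM in C9-BACexp mice and 31.9, 38.9, 112 and 137 CPM in C57BL/6J mice (1.01 ± 0.17, adjusted p = 0.0024). The RNA-binding protein gene Qk, whose product regulates myelin RNAs, was 169, 223 and 211 CPM in C9-BACexp mice and 103, 129, 192 and 187 CPM in C57BL/6J mice (0.43 ± 0.09, adjusted p = 0.016). Without C57BL/6J replicate 2 neither was called, with log2 fold changes of 0.66 for Sox2ot and 0.25 for Qk.

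The count of oligodendrocyte markers depended on which C57BL/6J mice were the control. Without C57BL/6J replicates 2 and 3, 1 of the 32 markers was called higher; without replicates 4 and 5, 29 were. Leaving out single libraries gave 7 calls without C57BL/6J replicate 2, 8 without C9-BACexp replicate 3 and 27 without C57BL/6J replicate 5, and between 12 and 23 without any of the other libraries. Correction for GC content and length left 19 called, with a median log2 fold change of 0.99. Without factors, no marker passed the test. Mbp had a log2 fold change of 1.46 without C57BL/6J replicates 4 and 5, and of 0.56 without replicates 2 and 3 (edgeR adjusted p = 0.175).

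**Figure D3:**
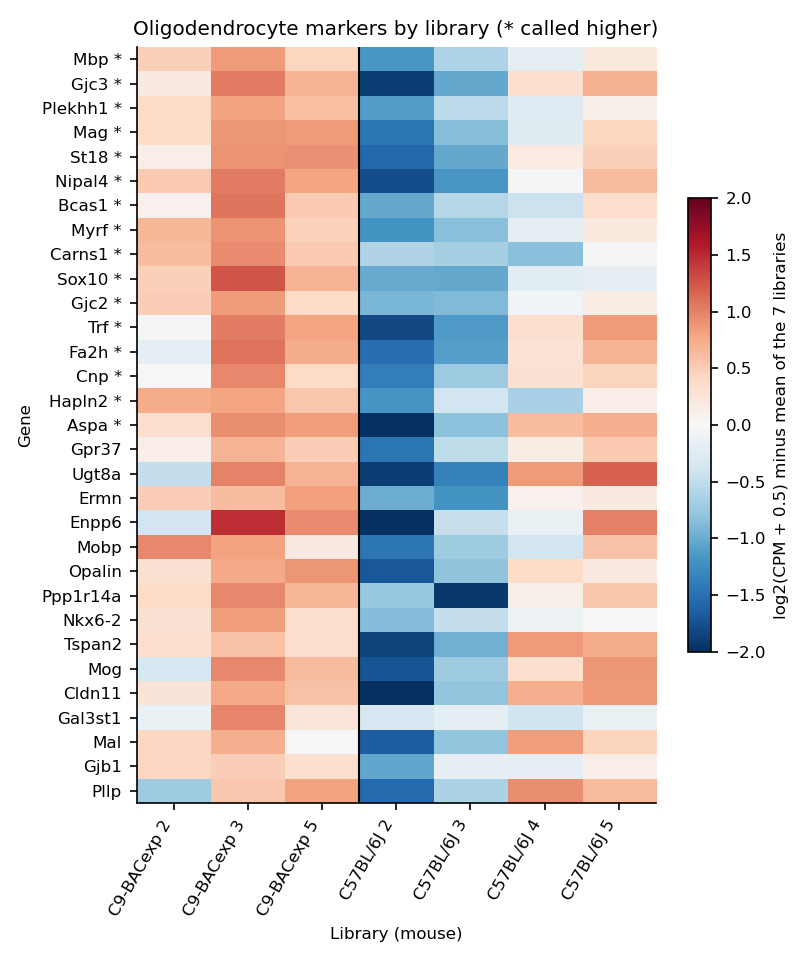
Color gives log2(CPM + 0.5) of 31 of the 32 oligodendrocyte markers (rows) in each of the 7 libraries (columns, C9-BACexp left of the line), minus the gene's mean over the 7 libraries; an asterisk marks the 16 genes called higher. C57BL/6J replicates 2 and 3 are low for nearly every marker, and C57BL/6J replicates 4 and 5 reach the C9-BACexp level for markers such as Mog and Gjc3.

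Promoter sequences of 3 of the called markers are given because these genes moved together and because SOX-type factors bind short motifs with the cores ACAAAG and ACAATG. The windows run from 250 bases before to 50 bases after a start site (RefSeq, GRCm38.p6, the first window listed for each gene), 5′ to 3′ on the gene's strand, and capitals mark either motif on either strand. They are Mag (chr7:30914814-30915113, minus strand; the myelin-associated glycoprotein), Cnp (chr11:100574689-100574988, plus strand; a myelin nucleotide phosphodiesterase) and Gjc3 (chr5:137963049-137963348, minus strand).
Mag: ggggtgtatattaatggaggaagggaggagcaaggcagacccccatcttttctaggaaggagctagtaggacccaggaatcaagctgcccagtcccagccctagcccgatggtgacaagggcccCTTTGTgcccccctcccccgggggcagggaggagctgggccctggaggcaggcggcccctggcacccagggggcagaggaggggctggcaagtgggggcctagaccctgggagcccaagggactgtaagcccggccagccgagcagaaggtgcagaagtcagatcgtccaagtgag
Cnp: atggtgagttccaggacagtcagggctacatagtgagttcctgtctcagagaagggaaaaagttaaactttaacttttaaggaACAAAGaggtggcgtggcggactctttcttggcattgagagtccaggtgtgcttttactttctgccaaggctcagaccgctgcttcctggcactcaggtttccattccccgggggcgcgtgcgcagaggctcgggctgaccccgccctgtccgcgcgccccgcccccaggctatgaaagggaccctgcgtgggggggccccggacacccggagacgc
Gjc3: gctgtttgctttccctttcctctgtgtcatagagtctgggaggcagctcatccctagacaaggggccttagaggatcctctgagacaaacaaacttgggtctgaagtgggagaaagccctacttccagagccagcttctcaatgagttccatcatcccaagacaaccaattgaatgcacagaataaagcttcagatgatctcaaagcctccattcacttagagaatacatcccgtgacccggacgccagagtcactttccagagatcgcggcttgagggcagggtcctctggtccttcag

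Mag and Cnp each held 1 match and Gjc3 none. Over the 22 markers with a window, 9 held a match (40.9%), and of the 7 called markers with a window 3 did, against 22.8% of 16287 tested genes with a window. A match is a count of letters only. Mag was 80.6, 116 and 114 CPM in C9-BACexp mice and 22.7, 34.5, 53.03 and 84.9 CPM in C57BL/6J mice, and Cnp was 25.1, 48.7 and 33.0 CPM against 9.20, 14.8, 30.8 and 33.9 CPM. The log2 fold change of Cnp was 0.82, and 0.46, not called, without C57BL/6J replicate 2.

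The pan-neuronal, excitatory and inhibitory markers that were called were lower. Of 15 pan-neuronal markers 2 were called lower (1.27% of all tested genes were), of 15 excitatory markers 2, of 24 inhibitory markers 1, and none of these was called higher. The 2 excitatory markers, Nrgn and Mef2c (log2 fold change -0.39 and -0.43), were not called without C57BL/6J replicate 4 or without replicate 5. Snap25, which encodes a synaptic SNARE protein, was 432, 512 and 462 CPM in C9-BACexp mice and 436, 466, 834 and 866 CPM in C57BL/6J mice (log2 fold change -0.41 ± 0.09, edgeR adjusted p = 0.013). Its C9-BACexp values matched C57BL/6J replicates 2 and 3 and lay far below replicates 4 and 5, and without those 2 libraries its log2 fold change was 0.052. Syt1, the calcium sensor of synaptic vesicle release, was 2028, 1985 and 1893 CPM in C9-BACexp mice and 2049, 2293, 2615 and 2934 CPM in C57BL/6J mice, without overlap (-0.32 ± 0.08, adjusted p = 0.046). The call of Syt1 was kept in 2 of the 7 fits that left out 1 library. Cck, the neuropeptide cholecystokinin, was 18.6, 16.6 and 18.1 CPM in C9-BACexp mice and 22.1, 28.8, 39.7 and 41.1 CPM in C57BL/6J mice, also without overlap (-0.85 ± 0.19, adjusted p = 0.020). Cck kept the call in 4 of the 7 fits that left out 1 library. Etv1, a transcription factor of layer 5 neurons, was 10.3, 22.8 and 22.1 CPM against 24.7, 27.2, 26.2 and 28.8 CPM (-0.61 ± 0.14, adjusted p = 0.018). Without C9-BACexp replicate 2 the log2 fold change of Etv1 was -0.25 (edgeR adjusted p = 0.499), and after correction for GC content and length Etv1 was not called (adjusted p = 0.054).

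Of 52 glutamate and GABA receptor genes tested, 1 was called higher and 3 lower, against 1.59% and 1.27% of all tested genes. Gabrb2, which encodes a subunit of the GABA-A receptor, the main inhibitory receptor of the cortex, was 181, 193 and 231 CPM in C9-BACexp mice and 161, 208, 484 and 414 CPM in C57BL/6J mice (log2 fold change -0.51 ± 0.09, edgeR adjusted p = 0.0024). The C9-BACexp mice lay near C57BL/6J replicates 2 and 3, and replicates 4 and 5 were the highest libraries. Without those 2 libraries, the log2 fold change of Gabrb2 was 0.14. Gria1, an AMPA receptor subunit gene, was called higher, with 1686, 2040 and 1644 CPM in C9-BACexp mice and 1578, 1506, 1202 and 1145 CPM in C57BL/6J mice, without overlap (0.42 ± 0.10, adjusted p = 0.025). After correction for GC content and length the log2 fold change of Gria1 was 0.31 and it was not called.

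Ndfip1, an adaptor of Nedd4-family ubiquitin ligases, was 56.1, 70.6 and 73.1 CPM in C9-BACexp mice and 58.1, 83.8, 148 and 142 CPM in C57BL/6J mice (log2 fold change -0.60 ± 0.09, edgeR adjusted p = 0.00062). Purb (a nucleic acid-binding protein), Pfn2 (the neuronal profilin) and Gnb1 (a G protein beta subunit) had log2 fold changes of -0.66, -0.78 and -0.51, and Calm2 and Calm3, which encode the calcium sensor calmodulin, of -0.49 and -0.38. In each of these 6 genes the 2 highest libraries were C57BL/6J replicates 4 and 5. Calm2 was not called without replicate 5 (-0.32), and Calm3 was not called without replicate 4 (-0.24). Without both of these libraries, the log2 fold change was 0.016 for Calm2 and -0.11 for Calm3, and neither was called. Scn1a, a sodium channel subunit of inhibitory neurons, was 176, 158 and 176 CPM in C9-BACexp mice and 216, 182, 267 and 254 CPM in C57BL/6J mice, without overlap (-0.43 ± 0.09, adjusted p = 0.013). Scn1a kept the call in 4 of the 7 fits that left out 1 library.

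The 20 markers of striatal projection neurons summed to 2250, 5787 and 2360 CPM in C9-BACexp mice and 2247, 2486, 2270 and 2953 CPM in C57BL/6J mice, and none was called. C9-BACexp replicate 3 was thus far above the other libraries, and Pde10a, a phosphodiesterase of striatal neurons, was 1078, 3447 and 1164 CPM in C9-BACexp mice and 1234, 1416, 1258 and 1331 CPM in C57BL/6J mice. Of 18 upper-layer markers (median -0.39), 1 was called higher (Cdh13, 0.59) and 1 lower (Nectin3, -0.73), against 1.59% and 1.27% of all tested genes. Cdh13 kept the call in 2 of the 7 fits that left out 1 library. After correction for GC content and length, Cdh13 was not called (edgeR adjusted p = 0.20), and 2 upper-layer markers were called lower. Of 21 deep-layer markers (median 0.25), Etv1 alone was called, and none was after the same correction.

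Markers of other cell types were counted in the same way, against 1.59% of all tested genes called higher and 1.27% called lower. Of 23 endothelial and mural markers, Pecam1 and Egfl7 were called lower and none higher, with a median of -0.81, and their sum was 52.8, 64.0 and 66.96 CPM in C9-BACexp mice and 84.7, 74.2, 115 and 87.3 CPM in C57BL/6J mice, without overlap. Egfl7, a secreted protein of endothelial cells, was 0.559, 3.46 and 3.79 CPM in C9-BACexp mice and 4.74, 4.36, 6.33 and 4.56 CPM in C57BL/6J mice (-1.28 ± 0.29, edgeR adjusted p = 0.021), and without C9-BACexp replicate 2 its log2 fold change was -0.46 (edgeR adjusted p = 0.493). Of 24 astrocyte markers, Hepacam alone was called higher (0.72), of 25 microglial markers Sall1 alone (0.71), and of 16 precursor markers Olig1 and Xylt1 (0.95 and 0.54). None of these lists held a gene called lower. Sall1 kept the call in 1 of the 7 fits that left out 1 library, and Hepacam, Olig1 and Xylt1 in 4 each. After correction for GC content and length, Xylt1 was not called (edgeR adjusted p = 0.103). The part of vascular and glial nuclei in the other results was not tested.

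**Figure D4:**
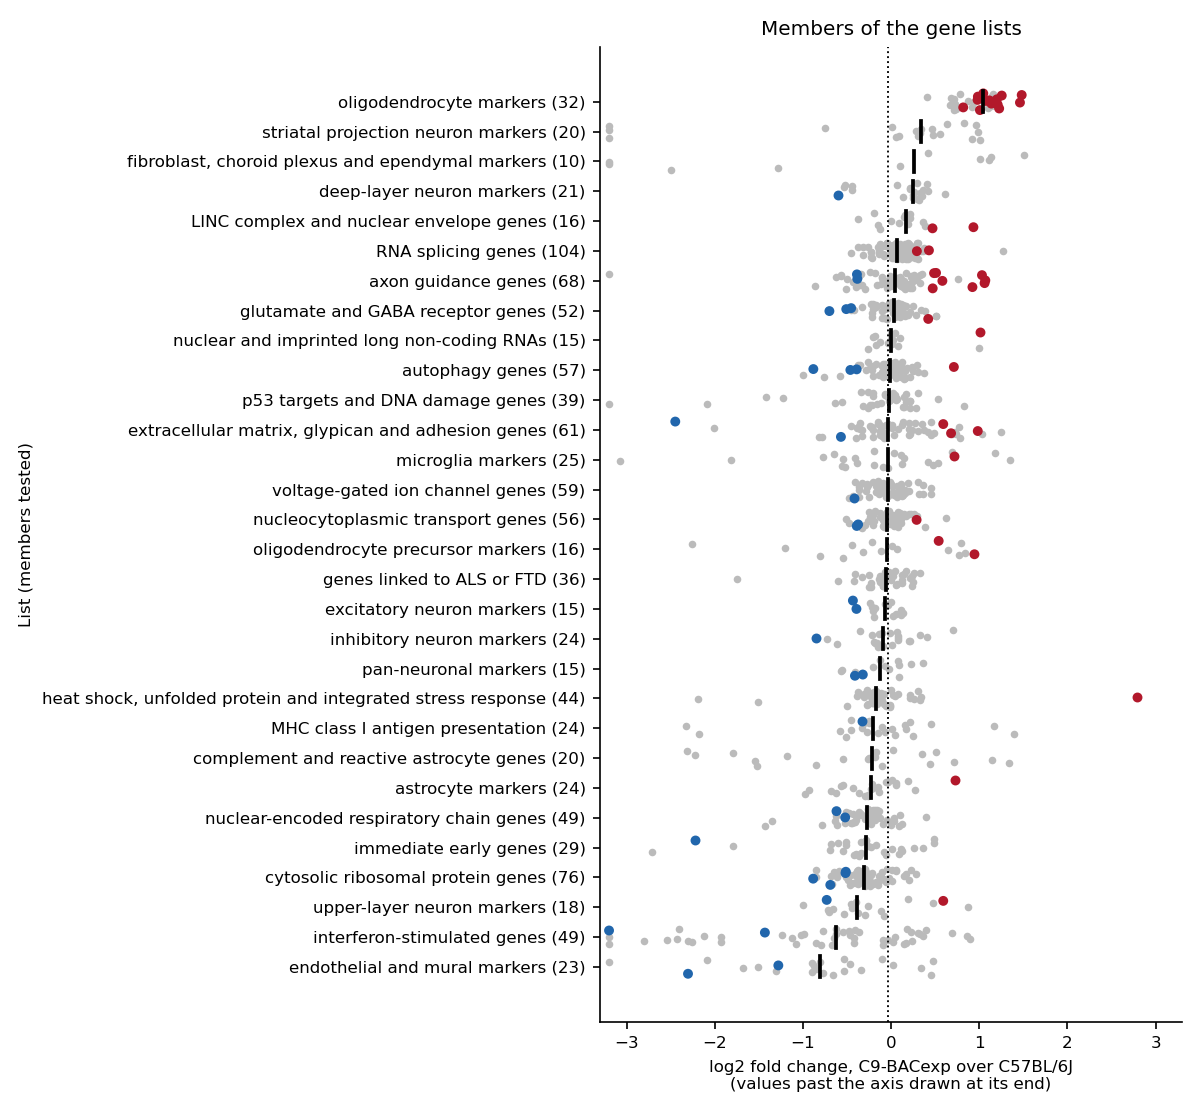
Each point is 1 member of a gene list and gives its log2 fold change, C9-BACexp over C57BL/6J; red and blue points were called higher and lower, grey points were not called, a black bar is the list's median, and the dotted line is the median of all tested genes (-0.03). The oligodendrocyte list stands at 1.05, and the endothelial and mural list at -0.81.

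No gene of the interferon, MHC class I or complement lists was called higher, where 1.59% of all tested genes were called higher and 1.27% lower. Of 49 interferon-stimulated genes 2 were called lower and none higher (median -0.63), and 1 of 24 genes for the MHC class I pathway, the chaperone gene Canx, was called lower (-0.32, edgeR adjusted p = 0.047). Canx kept the call in 2 of the 7 fits that left out 1 library, lost it after correction for GC content and length (adjusted p = 0.196) and with a replicate block (adjusted p = 0.0901), and had a log2 fold change of 0.041 without C57BL/6J replicates 4 and 5. Cmpk2, an interferon-induced kinase, was 0.240, 2.56 and 2.12 CPM in C9-BACexp mice and 2.40, 3.13, 3.07 and 3.91 CPM in C57BL/6J mice, and without C9-BACexp replicate 2 its log2 fold change was -0.43 (edgeR adjusted p = 0.594), against -1.43 with it. Ifitm3 stayed at or under 0.466 CPM in all 7 libraries, a level of a few counts, and no fold is given. No gene of 20 complement and reactive astrocyte genes was called; C4b, a complement component, was 36.2, 49.2 and 72.1 CPM in C9-BACexp mice and 10.9, 13.3, 27.05 and 44.9 CPM in C57BL/6J mice (log2 fold change 1.34 ± 0.51, edgeR adjusted p = 0.19).

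Axon guidance genes gave 8 calls higher and 2 lower among 68, against 1.59% and 1.27% of all tested genes, with a median log2 fold change of 0.04. After correction for GC content and length they gave 6 calls higher and 5 lower, with a median of -0.08. Unc5b, a netrin receptor, was 26.97, 40.9 and 31.1 CPM in C9-BACexp mice and 10.8, 13.4, 27.5 and 20.6 CPM in C57BL/6J mice (log2 fold change 0.92 ± 0.15, edgeR adjusted p = 0.0012). Sema5b, a semaphorin, was 108.5, 129 and 132 CPM in C9-BACexp mice and 77.9, 76.2, 40.2 and 51.1 CPM in C57BL/6J mice, without overlap (1.06 ± 0.19, adjusted p = 0.0031). Efnb3, an ephrin ligand also found on myelin, was 29.8, 49.7 and 41.6 CPM against 14.04, 20.1, 22.04 and 22.4 CPM (1.03). The semaphorin receptor genes Plxnb1 and Plxnb3, Slit1, Cntn2 and Nfasc were the other members called higher (0.47 to 1.07), whereas the ephrin receptor gene Epha4 and Chn1, which signals downstream of it, were lower (-0.38 and -0.39). Without C57BL/6J replicate 4, Slit1 and Chn1 were not called (0.23 and -0.24), and after correction for GC content and length Slit1 and Plxnb1 were not. Without C57BL/6J replicates 4 and 5, the log2 fold change was -0.17 for Slit1 and 0.05 for Chn1.

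Matrix and nuclear envelope genes gave scattered calls, beside 1.59% of all tested genes called higher and 1.27% lower. Gpc6, a glypican that promotes synapse formation, was 363, 290 and 332 CPM in C9-BACexp mice and 667, 422, 469 and 413 CPM in C57BL/6J mice, without overlap (log2 fold change -0.57 ± 0.13, edgeR adjusted p = 0.022). Gpc6 kept the call in 4 of the 7 fits that left out 1 library. Col27a1, a fibrillar collagen, was 9.87, 8.13 and 14.6 CPM in C9-BACexp mice and 11.4, 8.43, 2.45 and 3.80 CPM in C57BL/6J mice (0.98), where only C57BL/6J replicates 4 and 5 were low. Of 16 genes of the nuclear envelope and of the LINC complex, to which the KASH domain binds, Syne2 and Syne3, which encode nesprins, were called higher (0.47 and 0.93, edgeR adjusted p = 0.033 and 0.046). Syne3 was 16.4, 14.8 and 13.6 CPM in C9-BACexp mice and 9.82, 8.17, 5.20 and 8.49 CPM in C57BL/6J mice, without overlap. After correction for GC content and length, Syne2, Syne3 and Col27a1 were not called (edgeR adjusted p = 0.121, 0.097 and 0.057), and the calls among 61 matrix, glypican and adhesion genes were 0 higher and 3 lower, against 3 higher and 2 lower before it. Without C57BL/6J replicate 4 the log2 fold change of Col27a1 was 0.61, not called.

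Gene groups linked to C9ORF72 disease were counted beside all tested genes, of which 1.59% were called higher and 1.27% lower. None of 36 genes linked to ALS or FTD was called (median -0.06; Mapt, the tau gene, was 644, 616 and 563 CPM in C9-BACexp mice and 603, 559.7, 411 and 485 CPM in C57BL/6J mice, edgeR adjusted p = 0.061). Of 57 autophagy genes 1 was called higher and 3 lower: Wipi1, which acts in autophagosome formation, was 21.5, 36.5 and 28.9 CPM in C9-BACexp mice and 14.8, 15.7, 17.0 and 23 CPM in C57BL/6J mice (0.71 ± 0.15, adjusted p = 0.010), while Map1lc3b, Gabarapl1 and Gabarapl2, whose small ubiquitin-like products coat the autophagosome, were lower (-0.46, -0.39 and -0.88). Correction for GC content and length left Wipi1 called and none of the 3 lower genes. Of 104 RNA splicing genes 2 were higher, Qk and the CELF family gene Celf5 (0.29), and of 56 nucleocytoplasmic transport genes the importin gene Ipo13 was higher (0.29) and Kpna1 and Kpnb1 were lower (-0.39 and -0.37). After the same correction Celf5, Ipo13 and Kpna1 were not called (edgeR adjusted p = 0.113, 0.103 and 0.06). Celf5 and Kpna1 also lost the call without C57BL/6J replicate 4 (0.16 and -0.24) and without replicate 5 (0.21 and -0.26), and without both the log2 fold changes were -0.044 and 0.056. Kpnb1 was not called without replicate 5 (-0.21). None of 39 p53 target and DNA damage genes was called.

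Of 76 cytosolic ribosomal protein genes 4 were called lower and none higher (median -0.30), and of 49 nuclear-encoded respiratory chain genes 2 were called lower and none higher (median -0.27), against 1.27% of all tested genes lower. After correction for GC content and length, 2 genes of each list were called lower. Rpl32 was 3.92, 4.28 and 3.94 CPM in C9-BACexp mice and 5.80, 7.28, 7.97 and 8.68 CPM in C57BL/6J mice, without overlap (-0.88 ± 0.20, edgeR adjusted p = 0.017), although ribosomal protein genes have many near-identical processed pseudogenes, so their reads are uncertain. Sdhb, a subunit of succinate dehydrogenase, was 18.9, 24.8 and 22.9 CPM in C9-BACexp mice and 33.4, 33.6, 30.5 and 29.8 CPM in C57BL/6J mice, with C57BL/6J mice close together (-0.52 ± 0.11, adjusted p = 0.014). Without C57BL/6J replicates 2 and 3, 28 ribosomal and 20 respiratory chain genes were called lower. Trib3, a pseudokinase induced by the integrated stress response, was called higher at low levels (0.719, 1.58 and 0.425 CPM in C9-BACexp mice; 0.0958, 0.0847, 0.129 and 0.217 CPM in C57BL/6J mice), and it was the 1 member called of 44 stress genes. Gadd45b, an inducible stress gene, was the 1 member called of 29 immediate early genes, at 0, 1.04 and 1.67 CPM against 2.40, 0.805, 1.61 and 1.6 CPM. Without C9-BACexp replicate 2 the log2 fold change of Gadd45b was -0.22 (edgeR adjusted p = 0.878), against -2.23 with it.

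Among mouse genes that averaged 1 CPM or more, predicted genes left out, Myocd, a coactivator of serum response factor in muscle, rose most, with 8.51, 9.11 and 5.73 CPM in C9-BACexp mice and 4.79, 3.39, 0.678 and 0.787 CPM in C57BL/6J mice (log2 fold change 2.13 ± 0.43, edgeR adjusted p = 0.0087). Prima1, the membrane anchor of acetylcholinesterase, was 31.2, 77.1 and 42.5 CPM in C9-BACexp mice and 4.22, 11.3, 17.6 and 24.7 CPM in C57BL/6J mice, without overlap (1.94 ± 0.37, adjusted p = 0.0063). Mapk15, Ccdc187 and Gdpd2 had log2 fold changes of 2.04, 1.99 and 1.83. They kept the call in 2, 3 and 2 of the 7 fits that left out 1 library. After correction for GC content and length, Mapk15 and Ccdc187 were not called (edgeR adjusted p = 0.073 and 0.059). The groups overlapped for Mapk15, and without C57BL/6J replicates 4 and 5 its log2 fold change was 0.459. Among falls, Dusp13, a phosphatase gene, was 0, 0.468 and 0.455 CPM in C9-BACexp mice and 1.87, 3.18, 2.13 and 0.108 CPM in C57BL/6J mice, so the groups overlapped at C57BL/6J replicate 5. The call of Dusp13 was lost without C9-BACexp replicate 2. Cd200r1, a myeloid receptor for CD200, was 0.599, 0.360 and 0.303 CPM in C9-BACexp mice and 5.08, 2.67, 3.26 and 5.29 CPM in C57BL/6J mice (-3.40 ± 0.87, adjusted p = 0.040). Cd200r1 kept the call in 2 of the 7 fits that left out 1 library. It was not called after correction for GC content and length (edgeR adjusted p = 0.063). Pcdh20, Dgat2l6, Rny3 and Car5b fell by 2.45, 2.44, 2.40 and 2.39 on the log2 scale, and each of them lost the call in at least 2 of the 7 fits that left out 1 library. Pcdh20 was 0, 1.19 and 1.49 CPM in C9-BACexp mice and 1.198, 1.19, 3.36 and 2.44 CPM in C57BL/6J mice, so the groups overlapped, and without C9-BACexp replicate 2 its log2 fold change was -0.48 (edgeR adjusted p = 0.713). Rny3 kept the call in 2 of the 7 fits. The antisense transcript Zfhx2os had the smallest p of mouse genes called higher, with 10.3, 15.2 and 14.5 CPM in C9-BACexp mice and 10.3, 8.30, 3.94 and 4.37 CPM in C57BL/6J mice (1.098 ± 0.14, adjusted p = 0.00016); whether reads were assigned by strand is not given in the sources used here, so reads of Zfhx2 may count in it.

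The same genotypes were also compared in other mice, which received RfxCas13d-N2V8 with a non-targeting crRNA (NTG) or with crRNA-13 against the human transcripts beside EGFP-KASH. The 3 genotype comparisons share no library, but they share the model and its factors. Of the 347 genes called higher with EGFP-KASH only, 249 were also called higher with NTG, 71.8% of the first list and 28.6% of the second, where 1435 of all tested genes were called (6.59%), 4.01% higher and 2.59% lower. In 338 of the 347 (97.4%) the log2 fold change with NTG was positive, against 51.9% of all tested genes. The libraries with NTG also differed by GC content. In the highest GC decile, their median log2 deviation was -0.03, 0.15, 0.02, 0.13, 0.21 and 0.08 in C9-BACexp mice. In C57BL/6J mice with NTG it was -0.24, -0.09, 0.27, -0.05 and -0.44. The part of GC content in the shared calls was not tested. With crRNA-13, where 1.08% of all tested genes were called, 0.441% higher and 0.639% lower, 34 of the 347 were called higher (9.8%, and 35.4% of that list) and 308 (88.8%) had a positive log2 fold change, against 49.5% of all tested genes.

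Of the 276 genes called lower, 67 were also called lower with NTG (24.3% of the first list and 11.9% of the second), and 235 (85.1%) had a negative log2 fold change there, against 48.1% of all tested genes. With crRNA-13, 10 were called lower (3.62%, and 7.19% of that list) and 144 (52.2%) had a negative log2 fold change, against 50.5% of all tested genes. After correction for GC content and length, 152 of 240 higher genes (63.3%) and 55 of 209 lower genes (26.3%) were called the same way with NTG. Among the 3 lower genes that passed each alternative, Blvrb and Pecam1 had log2 fold changes of 0.08 and -0.09 with NTG, and Tsen15 had -0.43 with NTG and -0.75 with crRNA-13.

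**Figure D5:**
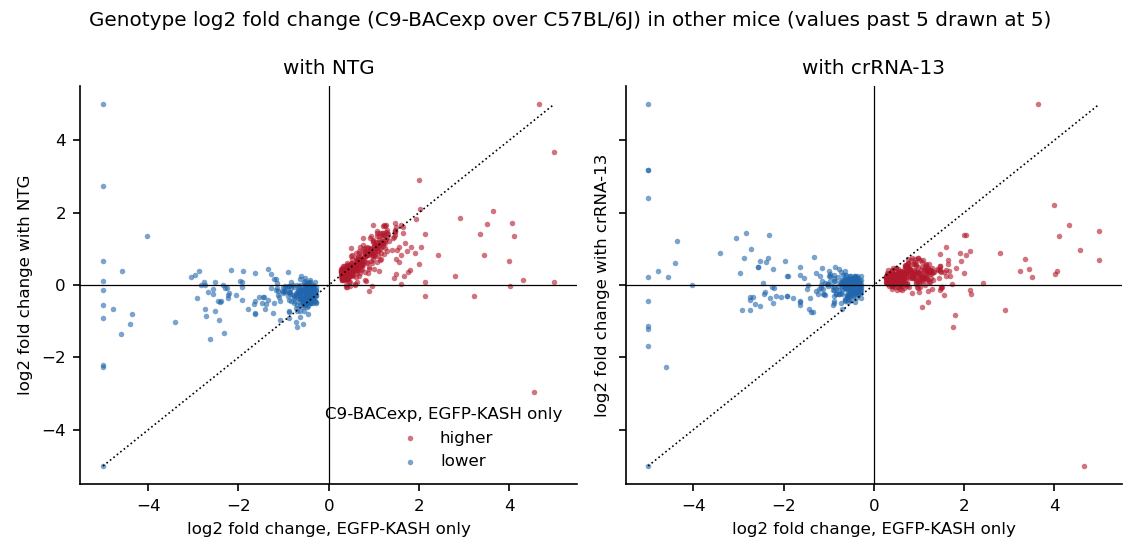
Points are the mouse genes called with EGFP-KASH only (red higher, blue lower in C9-BACexp mice), with that log2 fold change on the horizontal axis and, on the vertical axis, the log2 fold change of the same genotypes in mice with NTG (left) or with crRNA-13 (right); the dotted line marks equal values. Red points lie above 0 with NTG in 97.4% of the 347 genes, human transcripts included, and blue points lie on both sides of 0 with crRNA-13.

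Called in the same direction in all 3 comparisons were 39 genes, 31 higher and 8 lower. Beside the human transcripts, the higher ones included Ddr1 (log2 fold change 0.67 with EGFP-KASH only, 0.64 with NTG and 0.37 with crRNA-13), Phldb1 (0.92, 1.31 and 0.62), Unc5b (0.92, 1.03 and 0.73), Pacs2, a sorting protein (0.75, 0.62 and 0.47), Arhgap23, a GTPase-activating protein (0.60, 0.73 and 0.38), Nav1, a microtubule-binding protein of neurons (0.44, 0.35 and 0.31), Cnp (0.82, 0.80 and 0.70), Efnb3 (1.03, 1.03 and 0.70) and Wipi1 (0.71, 0.52 and 0.55). The lower ones included Epha4 (-0.38, -0.48 and -0.35), Acsl4, an acyl-CoA synthetase (-0.42, -0.46 and -0.46), and Cop1, a ubiquitin ligase (-0.28, -0.48 and -0.35). The call of Nav1 with EGFP-KASH only was lost without C57BL/6J replicate 5 (0.25, edgeR adjusted p = 0.132), and without replicates 4 and 5 its log2 fold change was -0.027 (adjusted p = 0.946). Acsl4 and Cop1 were not called without C57BL/6J replicate 4 (-0.22 and -0.12), and without replicates 4 and 5 they stood at 0.12 and 0.14. Values with crRNA-13 were the smallest of the 3 in most of these genes.

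Oligodendrocyte markers were also higher with NTG, where 27 of 32 were called higher (median 1.18), against 4.01% of all tested genes. With crRNA-13 1 of 32 was called higher (median 0.39), against 0.441% of all tested genes. Upper-layer markers had a median of -0.39 with EGFP-KASH only, -0.61 with NTG and -0.03 with crRNA-13. Interferon-stimulated genes had medians of -0.63, -0.60 and -2.08. Of 49 tested, 22 were called lower in C9-BACexp mice with crRNA-13, against 0.639% of all tested genes. Whether the genotype difference itself changed was tested as an interaction. No gene passed for EGFP-KASH only minus NTG (2249 at an unadjusted p under 0.05; 157 by DESeq2 with factors and 12 without), and 1 gene passed for EGFP-KASH only minus crRNA-13, the predicted gene Gm31298. These interaction counts rested on the C57BL/6J mice with EGFP-KASH only: without replicates 4 and 5 they were 1164 and 522, and without replicates 2 and 3 they were 180 and 877.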

How the data were processed

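The authors made the deposited expected counts, estimated per gene with Salmon 1.10.0 from spliced and unspliced mouse transcripts, 3 human C9ORF72 transcripts and EGFP-KASH, and summarised with tximport in R 4.3.1. Libraries were rRNA-depleted, from EGFP-KASH-sorted nuclei. The table held 39338 rows, and the 7 libraries had 21508829 to 35834122 counts. Shared reads are split by estimation, so near-identical copies and overlapping genes are uncertain. Counts were rounded to whole numbers, and 21768 genes passed edgeR's low-count filter (10 per library, 15 in total).

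The test was edgeR's quasi-likelihood test (edgeR 4.0.16, R 4.3.3) with TMM, 6 groups over 27 libraries and 4 factors of unwanted variation from residuals, because the study used 4 such factors without naming the kind. The p-values take no account of the estimation of these factors. Benjamini-Hochberg adjustment ran jointly over 5 comparisons. A call needed more than 1.2-fold and adjusted p under 0.05. Single values had exact permutation tests (SciPy 1.17.1), and intervals of a count of 0 used 3 counts. The labels give replicate numbers, and the study's text describes nuclei sorted per animal. Alternatives used DESeq2 1.42.0, limma 3.58.1, other factors, filters and scalings, a replicate block, correction for GC content and length, and libraries left out. The test was checked on simulated data with known changes. The simulation held no unwanted variation, so it does not show how the factors affect the number of calls.

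The members and gene lists were chosen with earlier results of these data known. Named genes, averaging 1 CPM or more and with no predicted-gene symbol, were the 8 largest rises and falls, the 6 smallest p in each direction, up to 8 called in all 3 genotype comparisons, up to 3 called members of each list (otherwise its 2 highest), genes called without factors, the human transcripts, EGFP-KASH, C9orf72, Smcr8 and Wdr41. Arhgef10, Fnbp1, Kif13a, Wnk1, Dnm3, Dock9, Phlpp1, Chd7, Chdh, Slain1, Sox10, Myrf, Mag, Cnp, Mog, Calm2, Calm3, Gria1, Efnb3, Plxnb1, Plxnb3, Slit1, Cntn2, Epha4, Chn1, Gabarapl1, Acsl4, Cop1 and Gm31298 fall outside it and were chosen after their values were seen. Results for some genes under the rule are not reported here. Promoters are from RefSeq (GRCm38.p6), 250 bases before to 50 after the start.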

Additional observations from a re-analysis of the deposited data

Results flagged for a closer look

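Among the 4 C57BL/6J mice, single libraries lay apart for 2 of 95 named genes tested, and chance alone gives about 1 in 20. Tsen15 was 11.4 CPM in C57BL/6J replicate 2, against 19.1 to 19.5 CPM in the other 3 C57BL/6J mice. Without that library its log2 fold change was -1.52 (edgeR adjusted p = 0.000559). Eif2s3y, a Y-linked gene, was 155 CPM in C57BL/6J replicate 3, the male mouse, and 0 to 0.719 CPM in the other 3.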

How the results depend on the processing

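The count of 623 called genes was 4 without factors, 157 with 2 factors, 64 with factors from replicate libraries, 1 in the 7 libraries alone without factors, 2 by limma-trend without factors, 1292 and 65 by DESeq2 with and without factors, and 5 after correction for GC content and length without factors. Leaving out single libraries gave 307 (without C57BL/6J replicate 4) to 1179 (without C57BL/6J replicate 2). The alternatives added after seeing the data were the corrections for GC content and length, sex as a term (572 called) and the 2 pairs of C57BL/6J libraries. Without replicates 2 and 3, 2141 genes were called.

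The 16 oligodendrocyte markers called higher became 0 without factors, in the 7 libraries alone, by limma-trend or DESeq2 without factors and after GC correction without factors. They became 4 with 2 factors, 1 with factors from replicate libraries, 26 by DESeq2 with factors, 29 without C57BL/6J replicates 4 and 5, 1 without replicates 2 and 3, and 7 to 27 without single libraries. Of the 3 human transcripts, 1 was called in the 7 libraries alone, and their summed log2 difference was 9.89 with a pseudocount of 0.1 CPM, against 7.57 with 0.5.

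The 39 genes shared by the 3 genotype comparisons became 2 without factors and by limma-trend without factors, 3 with 2 factors, with factors from replicate libraries and after GC correction without factors, 78 and 5 by DESeq2 with and without factors, 25 with no filter, 14 with p adjusted within the comparison, 13 after GC correction with factors, 18 without replicates 4 and 5, and 20 to 58 without single libraries. The interaction with NTG, 0 genes, became 1 with factors from replicate libraries and with no filter, 157 and 12 by DESeq2 with and without factors, 1164 without replicates 4 and 5, 180 without replicates 2 and 3, and 0 to 2 without single libraries. The interaction with crRNA-13, 1 gene, became 0 without factors, with 2 factors, by limma-trend without factors and after GC correction without factors, 2 with factors from replicate libraries and with no filter, 338 and 11 by DESeq2 with and without factors, 7 at a mean of at least 1 CPM, 522 without replicates 4 and 5, 877 without replicates 2 and 3, and 0 to 129 without single libraries. The cause of these shifts was not tested.

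Without C57BL/6J replicates 4 and 5, the log2 fold change was -0.027 for Nav1, 0.052 for Snap25, 0.041 for Canx, -0.044 for Celf5, 0.056 for Kpna1 and 0.14 for Gabrb2, each of the opposite sign to the full set. The sign was also opposite for Calm2 (0.016), Slit1 (-0.17), Chn1 (0.05), Acsl4 (0.12) and Cop1 (0.14).

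Deviations of same-numbered libraries from their group means correlated at 0.058, -0.049 and 0.021, and those of other library pairs at -0.077 to 0.082. So few values cannot show whether replicate numbers pair the mice. A replicate block called 334 genes in 27 libraries with factors and 0 in the 7 libraries without. It called 9 and 0 oligodendrocyte markers, 0 human transcripts in the 7 libraries, 9 genes shared by the 3 comparisons and 0 genes in the interaction with crRNA-13.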
